A study of Mus musculus with 4 samples.

Results

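Regulatory T cells (Tregs) of deltaDC and WT mice were profiled in spleen and thymus, and the RNA signals of 55 mitosis genes are described here. The genes were chosen by name, as mitotic cyclins, kinesins, spindle and kinetochore genes and their regulators. They were chosen with earlier results of these data known, so the choice was not independent of the values below. Every probe of the array that carries such a gene name was taken. All 55 were found, on 79 of the 55681 probes, among 22297 named genes in all. On the array of splenic deltaDC Tregs, 37 of 50 measured members were at least 2-fold brighter than on the array of splenic WT Tregs, against 6.42% of all genes. With another background correction the count was 25, against 3.87% of all genes. Between the thymic arrays the members differed little.

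The 4 groups had 1 array each: deltaDC spleen, WT spleen, deltaDC thymus and WT thymus. All mice were male and C57BL/6, per the labels, which give no age and do not define the deltaDC genotype. Cells of 3 mice per genotype were pooled before the sort, so each array reads 1 pool and there are no replicates. Splenic CD4 T cells had been enriched by a negative-selection kit and thymic ones by removal of CD8-bearing cells, and Tregs were then sorted from both as living cells with CD4 and CD25 on their surface. CD25 is also found on activated T cells that are not Tregs and on some immature thymocytes. Of the Treg and T cell markers, 7 were on the array under their listed names (Cd3e, Cd3d, Cd4, Foxp3, Il2ra, Ctla4 and Ikzf2), and all 7 were well above background on each array, with none differing 2-fold in any of the 4 comparisons. The largest difference was that of Il2ra, which encodes CD25, between the spleens. It read 15521 units in deltaDC spleen and 28920 in WT spleen, a difference of -0.90 log2.

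Mitosis genes encode the proteins that condense and separate the chromosomes and split a dividing cell. Most are transcribed in the late cell cycle, when the DREAM repressor complex has left their promoters and B-Myb and FoxM1 activate them, and they are nearly silent in resting cells. Cyclin B with Cdk1 drives entry into mitosis, Plk1 and the Aurora kinases build the spindle, the spindle checkpoint holds the anaphase promoting complex until chromosomes are attached, and Cdc20 then switches that complex on. Tregs of a healthy mouse include a resting pool and an activated pool that divides. In a bulk RNA sample, a larger share of dividing cells and more RNA per dividing cell cannot be told apart.

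Promoters of 45 of the 55 genes were matched by symbol to RefSeq sequence on GRCm38.p6, in 48 windows from 250 bases before to 50 after a gene's start. The 5 below, of both B cyclins, their kinase, Plk1 and Cdc20, are printed from 150 bases before to 30 after the start because these genes stand for entry into and exit from mitosis. Capitals mark CCAAT or its reverse ATTGG, the box bound by NF-Y, and the cell cycle homology region, TTTGAA, its reverse TTCAAA, or TTTAAA, which the DREAM complex is known to bind.
Ccnb1, chr13:100786457-100786636, minus strand: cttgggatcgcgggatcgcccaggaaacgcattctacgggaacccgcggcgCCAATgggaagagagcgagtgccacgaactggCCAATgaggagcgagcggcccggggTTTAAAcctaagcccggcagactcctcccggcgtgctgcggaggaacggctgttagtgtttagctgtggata
Ccnb2, chr9:70421525-70421704, minus strand: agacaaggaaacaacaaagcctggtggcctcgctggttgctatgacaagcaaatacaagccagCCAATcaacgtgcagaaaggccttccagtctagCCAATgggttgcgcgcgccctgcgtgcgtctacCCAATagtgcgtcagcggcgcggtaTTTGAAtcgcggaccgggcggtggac
Cdk1, chr10:69352883-69353062, minus strand: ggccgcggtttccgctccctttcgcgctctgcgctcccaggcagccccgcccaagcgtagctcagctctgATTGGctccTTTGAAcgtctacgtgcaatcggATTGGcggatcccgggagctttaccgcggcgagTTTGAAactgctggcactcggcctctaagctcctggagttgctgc
Plk1, chr7:122159285-122159464, plus strand: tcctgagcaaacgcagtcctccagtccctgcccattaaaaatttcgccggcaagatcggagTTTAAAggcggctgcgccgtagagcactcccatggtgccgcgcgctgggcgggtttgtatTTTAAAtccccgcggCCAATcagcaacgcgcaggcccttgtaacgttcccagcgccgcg
Cdc20, chr4:118437314-118437493, minus strand: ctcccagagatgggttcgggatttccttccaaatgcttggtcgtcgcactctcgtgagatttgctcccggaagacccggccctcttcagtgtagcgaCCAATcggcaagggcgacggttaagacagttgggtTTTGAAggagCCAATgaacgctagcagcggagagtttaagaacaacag
Each of these windows holds both kinds of motif. CCAAT or ATTGG was found in 34 of the members' 48 windows (70.8%), against 37.4% of all 32851 windows of the same length. The cell cycle homology letters were found in 40 of 48 (83.3%), against 27.6% of all windows. Both kinds together were present in 32 of 48 (66.7%), against 10.73% of all windows. The median position relative to the start was -67.5 for CCAAT and -17 for the cell cycle homology letters. Windows of Mad2l1, Melk, Mybl2, Nuf2, Nusap1 and Pttg1 held neither. These counts describe the letters only, and no binding was measured.

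The values reported are the brightness of 60-base probes, so the sequences below show what was read for 3 of the genes described first. They come from the array files, whose coordinates are on mm9, and each has at least 1 forward reading frame without a stop codon. No annotation of that build was used here, so exons were not assigned.
Mki67, chr7:142884764-142884823, minus strand: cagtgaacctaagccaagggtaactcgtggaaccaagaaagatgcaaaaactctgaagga
Ccnb1, chr13:101553449-101553508, minus strand: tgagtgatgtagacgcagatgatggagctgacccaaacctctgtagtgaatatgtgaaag
Ccnb1, chr13:101551224-101551283, minus strand: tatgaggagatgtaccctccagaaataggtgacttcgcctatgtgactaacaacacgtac
Bub1, chr2:127626988-127627047, minus strand: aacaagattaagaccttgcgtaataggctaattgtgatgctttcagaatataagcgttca
Mki67 encodes Ki-67, the standard marker of cycling cells, and its probe above read 7123 units in deltaDC spleen, 1858 in WT spleen, 5538 in deltaDC thymus and 7684 in WT thymus. The other Mki67 probe read 7023 units in deltaDC spleen, 1807 in WT spleen, 5642 in deltaDC thymus and 7293 in WT thymus, and both put WT spleen lowest. The 2 Ccnb1 probes above gave deltaDC minus WT differences in spleen of 1.87 and 2.12 log2, and the other, brighter one gave 1.72. Signals here are scaled so that the 75th percentile is equal on all arrays, and they allow comparison of 1 probe between arrays but not of different probes.

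In spleen, 50 members were well above background on both arrays. Of these, 37 were at least 2-fold higher in deltaDC than in WT and 0 were at least 2-fold lower. Over all 12529 genes measured on both arrays, 6.42% were at least 2-fold higher and 2.0% at least 2-fold lower. The members' median difference was 1.71 log2, or 3.27-fold, with quartiles of 1.015 and 2.03, against a median of -0.0047 for all genes. At a 1.5-fold threshold, 45 were higher and 0 lower, against 11.0% and 7.38% of genes. Of the 50, 49 lay above 0, against 49.3% of all genes. Of the same members, 48 differed by more than 2 spot errors, the spread expected from repeated spots of 1 probe at that brightness. The share of all genes beyond 2 spot errors was not computed for any comparison. With background corrected by normexp instead of as delivered by the scanner software, the median was 0.99 and 25 members were 2-fold higher, against 3.87% of all genes.

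In thymus the same comparison gave 0 members at least 2-fold higher in deltaDC and 1 at least 2-fold lower, of 52 measured. Among all 13039 genes measured there, 0.928% were 2-fold higher and 0.667% 2-fold lower. The members' median was -0.21 log2, with 46 of 52 below 0 and 6 above. All genes had a median of 0.05, with 60.2% above 0. Most of the differences were small: 50 of the 52 were within 1.5-fold, 0 were higher and 2 lower by that much (2.96% of genes each), and 28 exceeded 2 spot errors.

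Of the 50 members measured on all 4 arrays, 48 were lowest on WT spleen. The highest array was WT thymus for 34, deltaDC spleen for 12, deltaDC thymus for 3 and WT spleen for 1. Shares of all genes were not computed for these counts of the lowest and highest array. WT spleen was at least 2-fold below each of the other 3 arrays for 35 of the 50, against 2.36% of 12286 genes. None of the 50 was 2-fold above the other 3 arrays on deltaDC spleen, against 2.47% of genes. Before scaling, the 75th percentile of signal was 391 units on deltaDC spleen, 340.2 on WT spleen, 418 on deltaDC thymus and 407 on WT thymus. The plot of all members' signals shows the WT spleen points standing apart to the left in most rows, with the other 3 points close together.

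**Figure D1:**
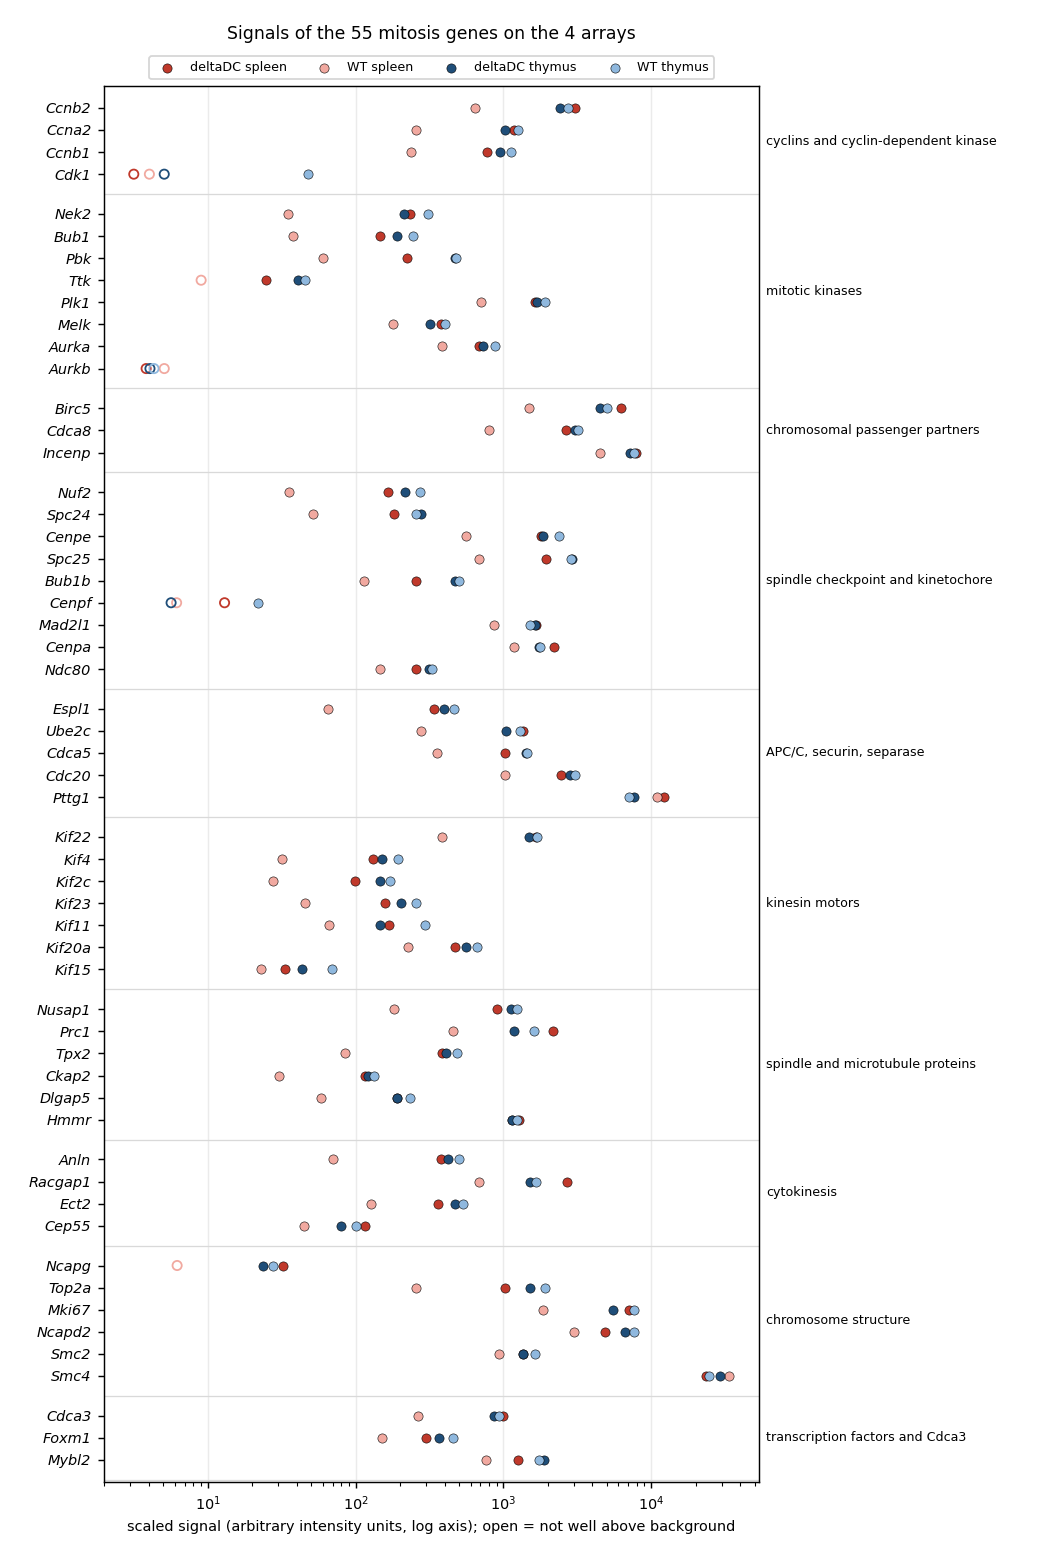
Scaled signal (intensity units, log axis) of the 55 mitosis genes, grouped by role and ordered within a role by the deltaDC minus WT difference in spleen; each point is 1 array of 1 pool, and open points are not well above background. In 48 of the 50 genes measured on all arrays the WT spleen point is the lowest, and the share of all genes was not computed for this count.

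Markers of other cell types also differed between the arrays, and their part in the members' differences was not tested. Neutrophil and precursor markers summed to 9938 units in deltaDC spleen (8 of 8 well above background), 165 in WT spleen (2 of 8), 2456 in deltaDC thymus (6 of 8) and 939 in WT thymus (6 of 8). Innate-like T and lymphoid cell markers summed to 4362 units in deltaDC spleen, 461 in WT spleen, 1371 in deltaDC thymus and 1665 in WT thymus, with 5 of 5 above background on each. Natural killer cell markers summed to 7077 units in deltaDC spleen (7 of 7), 1509 in WT spleen (5 of 7), 8421 in deltaDC thymus (5 of 7) and 6064 in WT thymus (5 of 7). All 3 sums were lowest on WT spleen, but in the last 2 lists 1 marker each carried most of the WT thymus sum, Cd163l1 at 1314 units there and Gzma at 5438. The median signal of the innate-like markers was 1034 units in deltaDC spleen, 54.2 in WT spleen, 60.4 in deltaDC thymus and 44.0 in WT thymus. That of the natural killer markers was 817 units in deltaDC spleen, 85.2 in WT spleen, 134 in deltaDC thymus and 78.1 in WT thymus. By the median both lists were thus highest on deltaDC spleen and lowest on WT thymus, while Cd163l1 and Gzma themselves were lowest on WT spleen, at 35.3 and 385 units. Neutrophil and precursor markers were lowest on WT spleen by the median too, at 511 units in deltaDC spleen, 4.30 in WT spleen, 103 in deltaDC thymus and 39.4 in WT thymus.

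Erythroid markers summed to 5997 units in deltaDC spleen (7 of 9), 2176 in WT spleen (5 of 9), 17205 in deltaDC thymus (6 of 9) and 4184 in WT thymus (5 of 9), with Klf1 not well above background on any array. Immature thymocyte markers summed to 5380 units in deltaDC spleen (3 of 8), 6401 in WT spleen (4 of 8), 56044 in deltaDC thymus (8 of 8) and 60370 in WT thymus (8 of 8). Cd1d1, at 4778 to 6029 units over the 4 arrays, made up most of both spleen sums, and Dntt most of both thymus sums. The median signal of the list was 10.2 units in deltaDC spleen, 13.9 in WT spleen, 1575 in deltaDC thymus and 1609 in WT thymus. By the median these markers stood about equally high in both thymi and low in both spleens. B cell markers summed to 1966 units in deltaDC spleen (5 of 7), 2093 in WT spleen (3 of 7), 6958 in deltaDC thymus (6 of 7) and 3443 in WT thymus (5 of 7). Cd79b made up most of both spleen sums, at 1833 units in deltaDC spleen and 1951 in WT spleen. The median signal of the B cell list was 21.8 units in deltaDC spleen, 9.52 in WT spleen, 742 in deltaDC thymus and 157 in WT thymus. CD8 T cell markers summed to 352 units in deltaDC spleen (2 of 3), 434 in WT spleen (2 of 3), 1047 in deltaDC thymus (3 of 3) and 775 in WT thymus (3 of 3). Plasma cell markers summed to between 10819 and 14342 units, and Xbp1, at 10142 to 11496, made up most of each sum. Jchain read 357 units in deltaDC spleen, 228 in WT spleen, 2071 in deltaDC thymus and 3329 in WT thymus. Prdm1 read 1528 units in deltaDC spleen, 433 in WT spleen, 377 in deltaDC thymus and 291 in WT thymus. Macrophage and dendritic cell markers summed to 47795 units in deltaDC spleen (9 of 10), 71565 in WT spleen (6 of 10), 44974 in deltaDC thymus (9 of 10) and 50966 in WT thymus (9 of 10), and Siglech made up most of each sum, at 45104 units in deltaDC spleen and 69980 in WT spleen. Their median signal was 193 units in deltaDC spleen, 81.2 in WT spleen, 174 in deltaDC thymus and 142 in WT thymus. Of the 6 measured on both spleen arrays, 3 (Adgre1, C1qa and C1qb) were at least 2-fold higher in deltaDC, with a median of 0.94 log2. The labels give RNA integrity numbers between 8.4 and 9.9 for the samples together, so RNA quality cannot be set beside single arrays.

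The cyclins gave the pattern in its plainest form. Ccnb2, a B cyclin that partners Cdk1, read 3041 units in deltaDC spleen, 639 in WT spleen, 2409 in deltaDC thymus and 2739.5 in WT thymus. Ccna2, the cyclin of S and G2 phase, read 1176 units in deltaDC spleen, 256 in WT spleen, 1028 in deltaDC thymus and 1256 in WT thymus. Ccnb1, the main partner of Cdk1 at mitotic entry, read 779.8 units in deltaDC spleen, 237 in WT spleen, 943 in deltaDC thymus and 1126 in WT thymus. All 3 were low on WT spleen alone. Their deltaDC minus WT differences in spleen were 2.25 ± 0.09, 2.20 ± 0.09 and 1.72 ± 0.10 log2 (± spot error), and in thymus they were -0.19 ± 0.09, -0.29 ± 0.09 and -0.26 ± 0.09.

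Among the mitotic kinases, 6 were measured in spleen and 5 of them were at least 2-fold higher in deltaDC. Plk1, which acts from centrosome maturation to cytokinesis, read 1645 units in deltaDC spleen, 707 in WT spleen, 1682 in deltaDC thymus and 1923 in WT thymus. Aurka, the Aurora kinase of spindle poles, read 689 units in deltaDC spleen, 382 in WT spleen, 723 in deltaDC thymus and 871 in WT thymus, a spleen difference of 0.85 ± 0.10 log2 that stayed under 2-fold. Melk, a kinase that is high in dividing cells, read 380.3 units in deltaDC spleen, 179 in WT spleen, 317 in deltaDC thymus and 400.3 in WT thymus. For all 3, WT spleen was the lowest array. Nek2, a centrosome-splitting kinase, read 233 units in deltaDC spleen, 34.9 in WT spleen, 213 in deltaDC thymus and 307 in WT thymus. Its spleen difference of 2.74 ± 0.26 log2, or 6.67-fold, was the highest among the measured members. Pbk, a kinase of mitotic cells, read 224 units in deltaDC spleen, 60.0 in WT spleen, 468 in deltaDC thymus and 481 in WT thymus, and was lower in both spleens than in both thymi, lowest in WT spleen. Bub1, the checkpoint kinase that marks centromeres, has a probe spotted 10 times, described with the repeated spots.

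The repeated spots show the error of a single hybridisation. Bub1 averaged 148 ± 9.09 units in deltaDC spleen (SD, n = 10 spots), 38.1 ± 4.88 in WT spleen (n = 10 spots), 189.7 ± 11.0 in deltaDC thymus (n = 10 spots) and 245 ± 14.6 in WT thymus (n = 9 spots). Cdca5, or sororin, which holds sister chromatids together, averaged 1034 ± 50.2 units in deltaDC spleen (n = 9 spots), 357 ± 21.1 in WT spleen (n = 10 spots), 1431 ± 58.5 in deltaDC thymus (n = 10 spots) and 1448 ± 58.2 in WT thymus (n = 10 spots). For both genes no spot of WT spleen overlapped a spot of any other array. Cdca5 spots of the thymic arrays overlapped each other. Spots of 1 array share 1 RNA pool and labelling, so this spread holds no variation between mice.

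**Figure D2:**
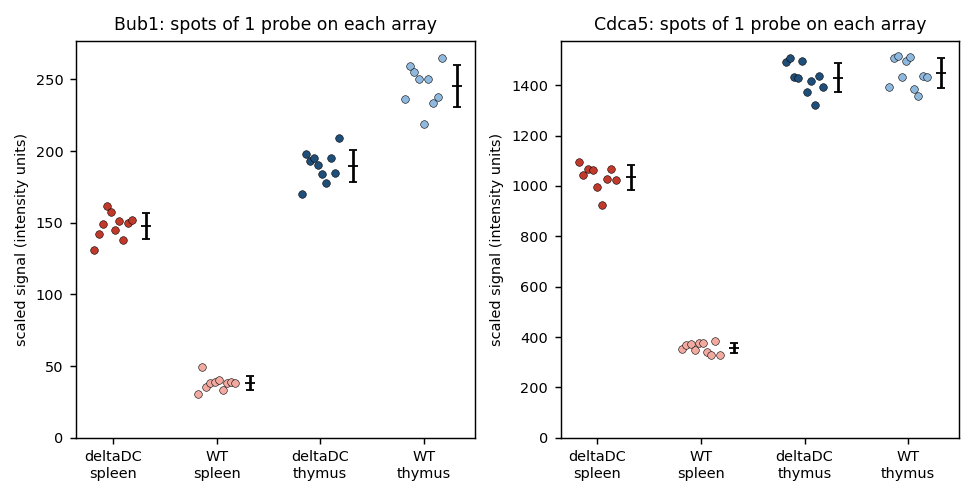
Scaled signal (intensity units, from 0) of each repeated spot of 1 Bub1 probe and 1 Cdca5 probe on the 4 arrays; bars are the mean and SD over 9 or 10 spots of the same array. WT spleen spots lie below all others, at means of 38.1 for Bub1 and 357 for Cdca5.

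The partners of Aurkb in the chromosomal passenger complex were all measured. Birc5, or survivin, read 6229.6 units in deltaDC spleen, 1481 in WT spleen, 4478 in deltaDC thymus and 4992 in WT thymus, and Cdca8, or borealin, read 2669.8 units in deltaDC spleen, 795 in WT spleen, 3062 in deltaDC thymus and 3177 in WT thymus. Their spleen differences were 2.07 ± 0.07 and 1.75 ± 0.09 log2. Incenp, the scaffold of the complex, read 7891 units in deltaDC spleen, 4516 in WT spleen, 7211 in deltaDC thymus and 7659.7 in WT thymus, which is 0.81 ± 0.07 log2 in spleen and under 2-fold. WT spleen was the lowest array for each of the 3, and deltaDC spleen the highest for Birc5 and Incenp.

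Of the checkpoint and kinetochore members, 5 of 8 measured in spleen were at least 2-fold higher in deltaDC. Spc25, a subunit of the Ndc80 complex that grips microtubules, read 1932 units in deltaDC spleen, 689 in WT spleen, 2927 in deltaDC thymus and 2866 in WT thymus. Cenpe, the kinetochore motor that aligns chromosomes, read 1805 units in deltaDC spleen, 561 in WT spleen, 1843 in deltaDC thymus and 2367 in WT thymus. Cenpa, the histone H3 variant of centromeres, read 2211 units in deltaDC spleen, 1184 in WT spleen, 1744 in deltaDC thymus and 1777 in WT thymus. Spc25 and Cenpe were low on WT spleen, with differences of 1.49 ± 0.09 and 1.69 ± 0.09 log2, while Cenpa differed by 0.90 ± 0.08. Nuf2, another subunit of that complex, read 167 units in deltaDC spleen, 35.5 in WT spleen, 218 in deltaDC thymus and 271 in WT thymus. Bub1b, or BubR1, the checkpoint protein that restrains Cdc20, read 258 units in deltaDC spleen, 114 in WT spleen, 468 in deltaDC thymus and 499.7 in WT thymus, with WT spleen again the lowest and deltaDC spleen between it and the thymi. Spc24, the partner of Spc25, read 181 units in deltaDC spleen, 51.3 in WT spleen, 278 in deltaDC thymus and 258 in WT thymus. Mad2l1 and Ndc80 were 0.93 and 0.81 log2 higher in deltaDC spleen than in WT spleen, both under 2-fold.

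Regulators of the step from metaphase to anaphase differed among themselves. Cdc20, which activates the anaphase promoting complex, read 2448 units in deltaDC spleen, 1020.1 in WT spleen, 2802 in deltaDC thymus and 3058 in WT thymus. Espl1, or separase, which cuts cohesin, read 337 units in deltaDC spleen, 65.1 in WT spleen, 399 in deltaDC thymus and 466 in WT thymus, a spleen difference of 2.37 ± 0.15 log2. Ube2c, the ubiquitin enzyme of the complex, was 2.28 ± 0.09 log2 higher in deltaDC spleen, and Cdca5 1.54 ± 0.03. These 4 were at least 2-fold higher in deltaDC spleen. Pttg1, or securin, the inhibitor of separase, read 12279 units in deltaDC spleen, 10905 in WT spleen, 7594 in deltaDC thymus and 7033 in WT thymus on its brighter probe. That probe was higher on both spleen arrays than on both thymus arrays, with a spleen difference between the genotypes of 0.17 ± 0.07 log2. The other Pttg1 probe read 423 units in deltaDC spleen, 431 in WT spleen, 358 in deltaDC thymus and 446 in WT thymus, and so was highest on WT thymus.

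All 7 kinesin motors were measured, and 6 were at least 2-fold higher in deltaDC spleen than in WT spleen. Kif22, a chromosome-arm motor, read 1669 units in deltaDC spleen, 384 in WT spleen, 1483 in deltaDC thymus and 1684 in WT thymus. Kif20a, a motor of the cleavage site, read 468 units in deltaDC spleen, 225 in WT spleen, 559.5 in deltaDC thymus and 665 in WT thymus. WT spleen was the lowest array for both, and the other 3 were within a narrow range for Kif22. Kif11, which pushes the spindle poles apart, read 169 units in deltaDC spleen, 66.5 in WT spleen, 147 in deltaDC thymus and 294 in WT thymus. Among members well above background on both thymus arrays, it was the only one at least 2-fold lower in deltaDC, at -1.0003 ± 0.17 log2, while in spleen it was 1.35 ± 0.17 log2 higher in deltaDC. Kif15, which can share the work of Kif11, read 33.6 units in deltaDC spleen, 22.9 in WT spleen, 43.5 in deltaDC thymus and 69.8 in WT thymus, and its differences of 0.55 ± 0.43 log2 in spleen and -0.68 ± 0.32 in thymus carry wide spot errors at this low signal. Kif4, Kif2c and Kif23 were 2.04, 1.85 and 1.81 log2 higher in deltaDC spleen.

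Of the 6 spindle and microtubule members, 5 were at least 2-fold higher in deltaDC spleen. Prc1, which bundles microtubules of the central spindle, read 2158 units in deltaDC spleen, 459.8 in WT spleen, 1176 in deltaDC thymus and 1600 in WT thymus. Nusap1, a microtubule-binding protein of the spindle, read 901 units in deltaDC spleen, 183 in WT spleen, 1128 in deltaDC thymus and 1235 in WT thymus. Both were lowest on WT spleen, and Prc1 was highest on deltaDC spleen. Hmmr, a spindle protein that also binds hyaluronan, read 1275 units in deltaDC spleen, 1137 in WT spleen, 1150.2 in deltaDC thymus and 1239.8 in WT thymus, and was nearly level over the 4 arrays. Tpx2, Ckap2 and Dlgap5 were 2.18, 1.93 and 1.70 log2 higher in deltaDC spleen.

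The 4 cytokinesis members were all at least 2-fold higher in deltaDC spleen. Racgap1, a subunit of centralspindlin, read 2708 units in deltaDC spleen, 683 in WT spleen, 1517 in deltaDC thymus and 1667 in WT thymus. Ect2, the exchange factor that starts the cleavage furrow, read 363 units in deltaDC spleen, 128 in WT spleen, 469.8 in deltaDC thymus and 531 in WT thymus. Anln, or anillin, the scaffold of the contractile ring, read 379.9 units in deltaDC spleen, 70.8 in WT spleen, 423 in deltaDC thymus and 503 in WT thymus. WT spleen was lowest in each, and Racgap1 was higher in deltaDC spleen than in either thymus. The spleen differences were 1.99 ± 0.09, 1.504 ± 0.15 and 2.42 ± 0.15 log2, and that of Cep55, which acts in the final cut between daughter cells, was 1.38 ± 0.27.

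Chromosome structure members included 2 of 5 measured in spleen at least 2-fold higher in deltaDC. These were Mki67, at 1.94 ± 0.07 log2, and Top2a, the topoisomerase that untangles sister chromosomes, at 1.99 ± 0.09. The condensin members measured on both spleen arrays, Smc2, Smc4 and Ncapd2, stayed under 2-fold. Smc4, a core subunit of both condensins, read 23390 units in deltaDC spleen, 33786 in WT spleen, 29168 in deltaDC thymus and 24541 in WT thymus, and is the only measured member lower in deltaDC spleen than in WT spleen, at -0.53 ± 0.07 log2. Ncapd2, of condensin I, read 4854 units in deltaDC spleen, 2994 in WT spleen, 6656 in deltaDC thymus and 7678 in WT thymus, a spleen difference of 0.70 ± 0.08 log2, and Smc2 differed by 0.54 ± 0.09. Ncapg, also of condensin I, was too dim on WT spleen to be placed against the threshold. Of the condensin subunits that are not members, Ncaph and Ncapg2 were 1.83 and 1.22 log2 higher in deltaDC spleen, while Ncapd3 and Ncaph2 stood at -0.09 and -0.11.

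Of the transcription factors that activate this programme, Foxm1 read 302 units in deltaDC spleen, 151 in WT spleen, 364 in deltaDC thymus and 456 in WT thymus, at the edge of the 2-fold threshold and just below it. Mybl2, or B-Myb, read 1258 units in deltaDC spleen, 765 in WT spleen, 1888 in deltaDC thymus and 1737 in WT thymus, a spleen difference of 0.72 ± 0.09 log2. Cdca3, a trigger of mitotic entry, read 988 units in deltaDC spleen, 265 in WT spleen, 863 in deltaDC thymus and 936 in WT thymus. All 3 were lowest on WT spleen, and only Cdca3, at 1.90 ± 0.10 log2, passed 2-fold between the spleens. Just inside the threshold in spleen stood Kif20a at 1.06 and Melk at 1.09, and just outside it Foxm1 at 0.99995 and Mad2l1 at 0.93.

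The remaining 5 members were not well above background on every array, which leaves bounds or no value. Aurkb, the kinase of the passenger complex, read 3.84 units in deltaDC spleen, 5.09 in WT spleen, 4.07 in deltaDC thymus and 4.34 in WT thymus, not well above background on any array, so it gives no comparison. Cdk1 read 3.16 units in deltaDC spleen, 4.04 in WT spleen, 5.08 in deltaDC thymus and 47.7 in WT thymus on its brightest probe and was well above background on WT thymus alone, and its other 2 probes were so on no array. That single WT thymus reading is at least 3.02-fold above deltaDC thymus and at least 2.76-fold above WT spleen, and 2 probes for the same gene do not show it. Cenpf, a kinetochore protein, read 13.0 units in deltaDC spleen, 6.17 in WT spleen, 5.66 in deltaDC thymus and 22.0 in WT thymus and was well above background on WT thymus alone, at least 1.39-fold above deltaDC thymus and 1.27-fold above WT spleen.

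Ttk, or Mps1, the master kinase of the spindle checkpoint, read 24.6 units in deltaDC spleen, 9.03 in WT spleen, 40.9 in deltaDC thymus and 45.2 in WT thymus. Ncapg, of condensin I, read 32.6 units in deltaDC spleen, 6.22 in WT spleen, 23.5 in deltaDC thymus and 27.6 in WT thymus. Both were dim on WT spleen only. Against the lowest signal well above background there, deltaDC spleen was at least 1.43-fold higher for Ttk and 1.88-fold for Ncapg, and WT thymus at least 2.62-fold and 1.60-fold higher. Member probes well above background on at most 1 array had a median GC content of 35%, against 43.3% for the 63 member probes above it on all 4 arrays, and the part of base composition in these dim readings was not tested.

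Between organs, these genes differed more on the WT arrays than on the deltaDC arrays. In WT mice, 43 of 50 measured members were at least 2-fold higher in thymus than in spleen and 0 were at least 2-fold lower, against 6.54% and 3.03% of 12482 genes. The median was 2.04 log2, or 4.10-fold, and all genes had a median of -0.08. At 1.5-fold, 47 members were higher and 1 lower, against 11.6% of genes each. In deltaDC mice, 1 of 52 members was at least 2-fold higher in thymus than in spleen and 0 were at least 2-fold lower, against 5.37% and 6.15% of 12803 genes. The median there was 0.13 log2, and 43 of the 52 were within 1.5-fold, with 6 higher and 3 lower by that much, against 11.2% and 12.6% of genes. The comparisons share arrays, so that low signals on WT spleen enter both the genotype difference in spleen and the organ difference in WT mice. Spleen and thymus cells were also enriched in different ways, which cannot be told apart from organ.

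The highest differences between the WT organs were 3.13 ± 0.26 log2 for Nek2, 3.00 ± 0.15 for Pbk and 2.93 ± 0.26 for Nuf2. Pttg1 at -0.63 ± 0.07 and Smc4 at -0.46 ± 0.07 were the members below 0, and Hmmr stood at 0.13 ± 0.10. The other, dimmer Pttg1 probe stood at 0.05. Between the deltaDC organs, Pbk at 1.06 ± 0.11, Bub1b at 0.86 ± 0.11 and Ttk at 0.73 ± 0.47 were highest, followed by Spc24 at 0.62 ± 0.14. Prc1 at -0.88 ± 0.08, Racgap1 at -0.84 ± 0.08 and Pttg1 at -0.69 ± 0.07 were lowest. The difference of Ttk, a dim probe, was under 2 spot errors. Pbk, Bub1b and Spc24 thus had more signal in deltaDC thymus, and Prc1 and Racgap1 more in deltaDC spleen. Of these, Pbk alone reached 2-fold.

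**Figure D3:**
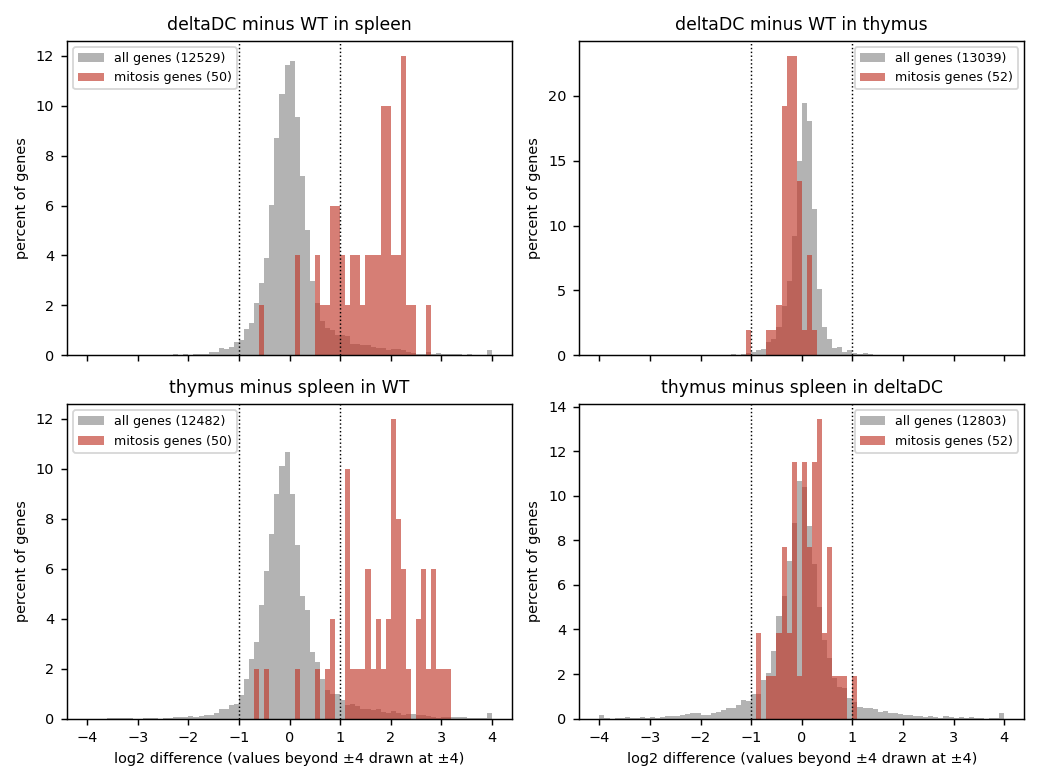
Percent of genes in bins of 0.1 log2 for the 4 differences between arrays, all genes in grey and the mitosis genes in red; dotted lines mark 2-fold. The mitosis genes stand to the right of all genes in deltaDC minus WT in spleen (medians 1.71 and -0.0047) and in thymus minus spleen in WT (2.04 and -0.08), and near 0 in the other panels.

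The genotype difference in spleen minus that in thymus was at least 1 log2 for 40 of the 50 members measured on all arrays, against 6.62% of 12286 genes, and at most -1 for 0, against 2.31%. Its median was 1.96 log2, with all genes at -0.06. The 10 members under 1 were Ndc80, Mad2l1, Cenpa, Incenp, Ncapd2, Smc2, Mybl2, Hmmr, Pttg1 and Smc4, of which Smc4 alone was below 0. This difference would use the last residual degree of freedom of 4 arrays and has no test.

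**Figure D4:**
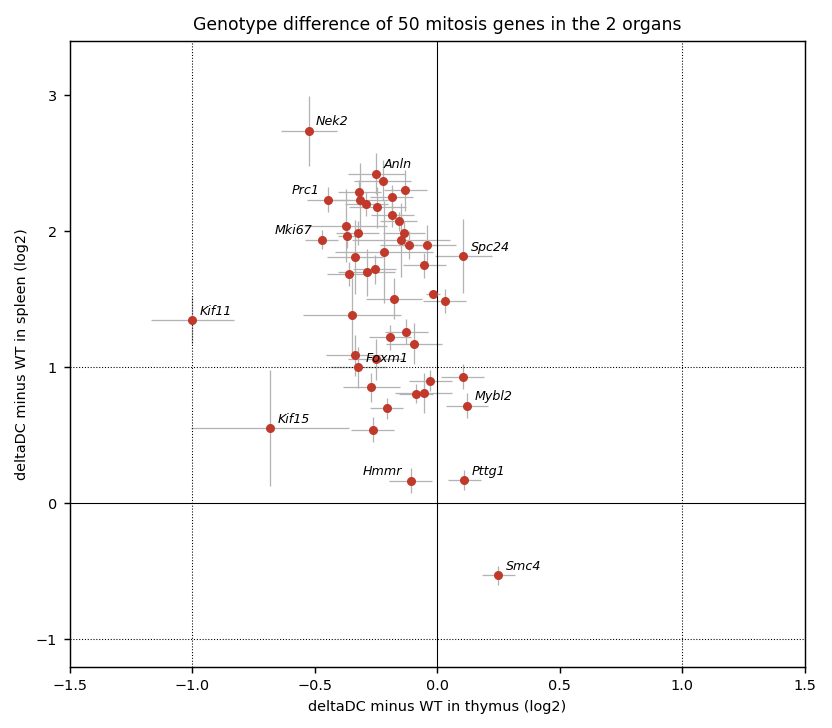
Difference of deltaDC minus WT (log2) in thymus on the x axis and in spleen on the y axis for the 50 mitosis genes measured on all 4 arrays; grey bars are the spot error of each difference and dotted lines mark 2-fold. The cloud lies above 0 in spleen (median 1.71) and slightly left of 0 in thymus (median -0.21), with Smc4 the single point below 0 in spleen.

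A fit over all 4 arrays with genotype and organ as terms (limma, 1 residual degree of freedom, Benjamini-Hochberg adjustment over 13491 genes) called 0 of 52 members for genotype, and 0 of all genes. The smallest adjusted p of a member was 0.806, and 0 members had an unadjusted p under 0.05, against 4.37% of all genes. For organ, the fit called 0 of 52 members and 62 genes higher (0.460%) and 2 lower (0.0148%) in thymus. There, 4 members (Pttg1, Mybl2, Bub1b and Pbk) had an unadjusted p under 0.05, against 20.2% of genes. Pttg1, read on its brighter probe, was lower in thymus at -0.66 log2, while Mybl2, Bub1b and Pbk were higher. The fit takes 1 genotype effect for both organs, which the members' values in spleen and thymus do not share, and no other tool was run.

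Other cell cycle genes were counted from 7 lists. Among other spindle, centrosome and cytokinesis genes, 8 of 22 measured were at least 2-fold higher in deltaDC spleen (median 0.87 log2). Depdc1b at 2.24 was the highest of those measured and Sass6 at -0.21 the lowest. This count and median leave out Kif14, Kif18b, Stil, Iqgap3, Depdc1a, Troap, Fam83d, Cdc25c and Mastl, which were dim on WT spleen only. Iqgap3, for example, read 78.8 units in deltaDC spleen and 4.43 in WT spleen, and Kif18b 96.0 and 15.8. Other condensin and kinetochore genes had 10 of 30 higher (median 0.62), from Ska1 at 2.31 to Mad1l1 at -0.15. DNA replication and S phase genes had 6 of 29 higher (median 0.69), from Rrm2, a subunit of the nucleotide-making ribonucleotide reductase, at 1.79 to Cdk2 at -0.01. No measured gene of the 7 lists was 2-fold lower in deltaDC spleen, against 2.0% of all genes.

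Subunits and partners of the anaphase promoting complex, whose activator is Cdc20, had 0 of 15 that were 2-fold higher in deltaDC spleen and a median of 0.13 log2, from Fzr1 at 0.52 to Cdc23 at -0.31. Cohesin and its loaders had 1 of 11 higher (median -0.05), the centromere protector Sgo1 at 1.008, with Pds5a lowest at -0.35. G1 cyclins and pocket proteins had 0 of 14 higher (median 0.09), from Rbl2 at 0.83 to E2f5 at -0.28. The counts of these 3 lists lie near the 6.42% of all genes that were 2-fold higher in deltaDC spleen. The cohesin count leaves out Sgo2a and Esco2, which were dim on WT spleen only. Sgo2a read 33.3 units in deltaDC spleen and 15.4 in WT spleen, and Esco2 28.9 and 10.8.

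Inhibitors of cyclin-dependent kinases had 4 of 7 measured higher in deltaDC spleen (median 1.23 log2). Cdkn2b, dim on WT spleen only, is not among these 7 and read 118 units in deltaDC spleen and 5.06 in WT spleen. Cdkn2a, which encodes p16 and p19Arf, read 338 units in deltaDC spleen, 34.5 in WT spleen, 30.8 in deltaDC thymus and 4.10 in WT thymus, highest on deltaDC spleen and not well above background on WT thymus. Its spleen difference was 3.29 log2, while Cdkn1b, or p27, was lowest at -0.16. The other 3 measured inhibitors past 2-fold were Cdkn1a at 3.098, Cdkn3 at 2.39 and Cdkn2c at 1.23, named after their values were seen. Between the thymi, 0 measured genes of the 7 lists were 2-fold higher or lower in deltaDC, where 0.928% of all genes were higher and 0.667% lower.

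**Figure D5:**
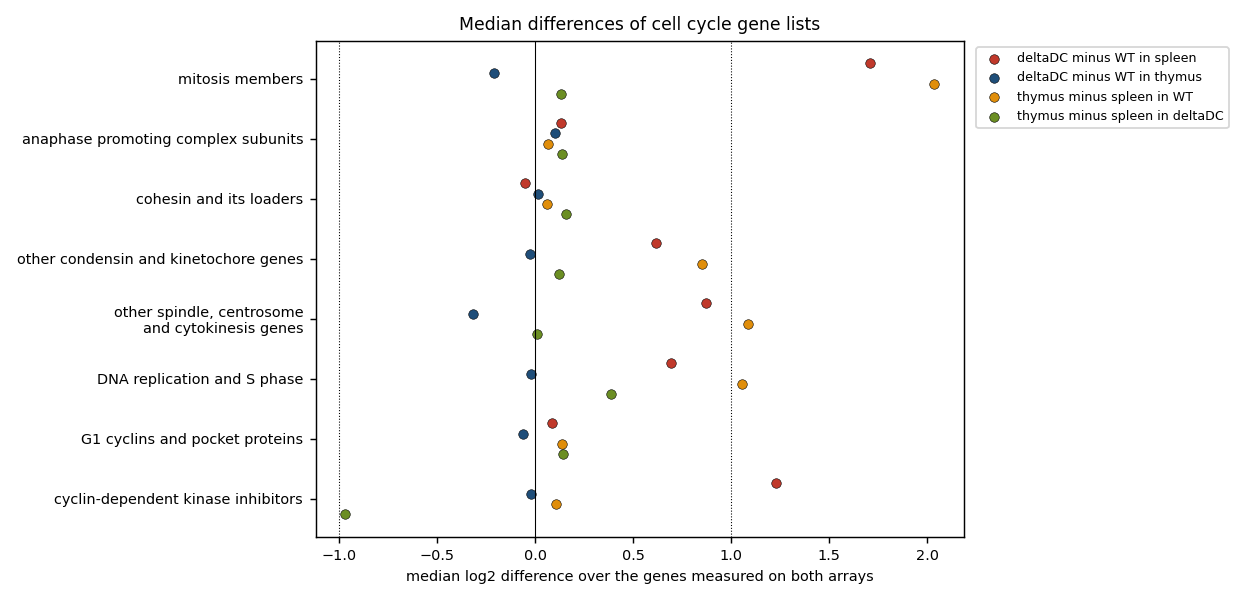
Median log2 difference of the mitosis genes and 7 other cell cycle lists in the 4 comparisons, over the genes measured on both arrays; dotted lines mark 2-fold. In deltaDC minus WT in spleen the mitosis genes have a median of 1.71, against 0.13 for the anaphase promoting complex and 0.09 for G1 cyclins and pocket proteins.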

How the data were processed

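RNA of 4 pools of sorted Tregs was labelled with Cy3 from 10 ng by a low-input kit and read on 1-colour Agilent mouse arrays, per the labels' protocols. The deposited scanner files hold fluorescence intensity from Agilent Feature Extraction 10.7.3.1, per the file headers, as processed signals that are already background-subtracted, with quality flags of 0 or 1. The authors also deposited a matrix of log2 values whose header names background subtraction and quantile normalization. Its column medians were 4.114 for deltaDC spleen, 4.10 for WT spleen, 4.10 for deltaDC thymus and 4.153 for WT thymus. Each column followed the scanner array of its own label (r of deviations from the spot mean 0.958 to 0.984), so direction is settled, the columns are not centred on 0, and the offset of its scale stays unknown.

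From the intensity, 3671 control spots and 110 to 168 outlier-flagged spots per array were left out. No spot was saturated. Each array's log2 signals had their 75th percentile (340 to 418 units) subtracted, repeated spots were averaged, and the brightest probe stood for a gene. Scaled signals set this percentile to 388 on every array. Genes were named by RefSeq accession or symbol (31058 probes, 22297 genes). A gene was measured in a comparison where its probe was well above background on both arrays, by the scanner software's flag (48.7% to 50.7% of spots), and called at 2-fold or more. With 1 array against 1 no p-value exists, and the number of arrays limits precision. The spot error comes from the 399 probes spotted 10 times. limma 3.58.1 in R 4.3.3 fitted genotype and organ on genes above background on at least 2 arrays. The calculations were tested on simulated data. Values over 4 arrays are printed for the 3 brightest members of each role, the 3 highest and lowest in each difference, and members dim on any array, and from each other list the highest and lowest gene in spleen. Spc24, Top2a, Bub1, 3 kinase inhibitors, genes of the other lists that were dim on WT spleen only, and single condensin subunits and cell type markers are named beside this rule. Alternatives were normexp (offset 50), quantile normalization, another percentile, the deposited matrix, the median over probes, other filters and a 1.5-fold threshold. The members and lists were chosen with earlier results of these data known. Values of single genes withheld from the text are not reported here.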

Additional observations from a re-analysis of the deposited data

Results flagged for a closer look

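The members' median difference of deltaDC minus WT pointed opposite ways in the organs, at 1.71 log2 in spleen and -0.21 in thymus. Among single members measured on all 4 arrays, Kif11 alone was past 2-fold in both organs, in opposite directions, at 1.35 log2 in spleen and -1.0003 in thymus. With 1 array per group, the difference between the organs was not tested.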

How the results depend on the processing

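The count of members at least 2-fold higher in deltaDC spleen was 25 to 40 over 7 alternatives that kept the 2-fold threshold, against 37, and 45 at 1.5-fold. That in WT thymus over WT spleen was 39 to 47, against 43, and 47 at 1.5-fold. The members' median in spleen was 0.99 with normexp and 1.53 where a gene took the median of its probes, against 1.71. The median of thymus minus spleen in WT was 1.496 and 1.89 under the same settings, against 2.04. The 1 member 2-fold lower in deltaDC thymus, Kif11, lies at the threshold: the count was 0 with normexp and with quantile normalization, 2 with the median over probes, 3 without the filter on dim probes and 2 at 1.5-fold. In deltaDC mice, members higher in thymus numbered 0 with normexp, 2 in the deposited matrix and 6 at 1.5-fold, and members lower 1 without the filter and 3 at 1.5-fold. At 1.5-fold, 1 member was lower in WT thymus than in WT spleen and 1 was highest on deltaDC spleen. Differences of single members that changed sign included Cenpf in spleen with normexp (-0.082, against 1.08, dim on both arrays). With the median over probes that include dim ones, they included Cdk1 in thymus (0.21, against -3.23) and Nuf2 between WT organs (-0.086, against 2.93). Some smaller differences, such as that of Mybl2 in thymus, also changed sign with the median over probes. Genes called for organ by limma numbered 183 higher and 30 lower with normexp, against 62 and 2, and 0 under 5 other settings. For genotype the count of members called was 0 in all settings run. No paired analysis was possible because the labels give no replicate numbers and each group has 1 array.

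Signal over background limits 5 members, of which Aurkb has no usable reading and Cdk1 1. A single pool per group means that differences between mice, sorts and labellings are not measured and cannot be told apart from genotype. Enrichment, sort and labelling likewise cannot be told apart from organ.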
